A study of Mus musculus with 12 samples.

Results

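The matrix metalloproteinases (MMPs) and their tissue inhibitors (TIMPs) were followed here as 10 genes, Mmp2, Mmp3, Mmp7, Mmp9, Mmp10, Mmp13, Mmp14, Timp1, Timp2 and Timp3. They were found by gene name among the 53801 genes of the count table. All 10 were listed in the authors' normalized table of the colon and 7 in that of the blood, where Mmp7, Mmp10 and Timp1 were missing. The study sequenced total RNA of the colon and of whole blood from the same 6 male C57BL/6 mice, 8 weeks old when obtained, so that each of the 4 labelled groups held 3 libraries. Mice 1, 2 and 4 were labelled UC (ulcerative colitis) and, per the study's methods, drank 1.5% dextran sulfate sodium (DSS), a detergent-like polymer that injures the colon epithelium, for 7 days. Mice 7, 8 and 9 were labelled control and drank the same water without DSS. The animals were killed on day 8, and these 6 had been picked from a larger set by disease activity index. DSS colitis is an acute chemical injury, and no genotype differed between the groups.

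MMPs are zinc proteases that cut collagens, laminins, fibronectin and other proteins of the extracellular matrix, and also chemokines and cell surface proteins. Most are secreted as inactive precursors, and TIMPs block the active enzymes by binding their catalytic site. In the inflamed gut they are known for roles in the breakdown and repair of the mucosa. RNA levels, which are what was measured here, do not show how much of an enzyme was active.

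The labels put each library in a tissue, and the marker genes of both tissues followed the tissue characteristic. The sum of 8 epithelial markers was at least 906750 normalized counts in every colon library and at most 391 in every blood library, while the sum of 7 red cell markers was at least 3943400 in blood and at most 4281 in colon. The disease labels went against inflammatory genes. S100a8, a calcium-binding protein abundant in neutrophils, had normalized counts of 5370.4, 33.1 and 22.3 in the colon of mice 1, 2 and 4, labelled UC, and 1888, 75.6 and 13337 in mice 7, 8 and 9, labelled control. The colon libraries of mice 9, 1 and 7 were thus high, and the lowest of these 3 was 25.0 times the highest of the others. The authors' normalized tables list the libraries in the order of mice 1, 7, 9, 2, 4 and 8. The paper lists Lcn2 among the top upregulated genes in the blood of its UC mice. Blood Lcn2 had 9234, 169 and 170 normalized counts in mice 1, 2 and 4 and 774, 182 and 1886 in mice 7, 8 and 9. Under the deposited labels its log2FC in blood was 1.75 (SE 1.49), and it was not significant. Whether the labels match the mice could not be settled from the deposited data alone. Every difference written as UC minus control therefore holds for the labels as deposited. If labels had been exchanged, its size, sign and significance could all change, depending on which mice were concerned. Statements that labelled groups overlapped, or that no member differed significantly between them, likewise hold for the deposited labels only. They are no statement on the effect of DSS. Groups were kept as labelled, and each value is given with its mouse. Library totals ranged from 69181049 to 103662306 counts in colon and from 80867247 to 142536804 in blood, and the 3 colon libraries labelled UC had the highest totals of that tissue. A normalized count is the authors' count divided by 1 factor per library, set within each tissue.

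A single stretch of chromosome 9 (GRCm38) holds 4 of the members, all on the + strand. It runs from base 7272514 to base 7699585, spans 10 MMP genes in all, and carries Mmp13 (collagenase-3), Mmp3 (stromelysin-1), Mmp10 (stromelysin-2) and Mmp7 (matrilysin) in that order. The gap between Mmp3 and Mmp10, the closest pair, was 46376 bases. The other members lie apart, with Mmp2 on chromosome 8, Mmp9 on 2, Mmp14 on 14, Timp1 on X, Timp2 on 11 and Timp3 on 10. Promoter sequences (RefSeq, GRCm38.p6) were at hand for 8 of the 10 members, Mmp2 and Mmp9 being the others. The 250 bases before the start were searched on both strands for TGAGTCA, a sequence that the AP-1 factors (Fos and Jun proteins) bind, whose reverse complement is TGACTCA, and for a TATA box spelled TATAAA. The AP-1 spelling was found in 4 of 8 members and in 4.46% of 32851 promoters, and TATAAA in 4 of 8 members and 12.4% of promoters. In both cases the 4 were Mmp13, Mmp3, Mmp10 and Mmp7. Their last 120 bases before the first start are shown because these neighbouring genes carry both motifs, with the motifs in capitals, at chr9:7272394-7272513, chr9:7445702-7445821, chr9:7502222-7502341 and chr9:7691970-7692089, + strand.
Mmp13: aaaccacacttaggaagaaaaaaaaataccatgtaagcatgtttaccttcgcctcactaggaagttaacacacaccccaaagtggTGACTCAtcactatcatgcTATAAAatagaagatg
Mmp3: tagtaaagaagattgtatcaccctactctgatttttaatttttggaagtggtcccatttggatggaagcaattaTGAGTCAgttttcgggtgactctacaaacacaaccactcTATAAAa
Mmp10: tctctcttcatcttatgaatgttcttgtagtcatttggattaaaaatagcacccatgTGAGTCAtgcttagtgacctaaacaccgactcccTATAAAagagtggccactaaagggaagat
Mmp7: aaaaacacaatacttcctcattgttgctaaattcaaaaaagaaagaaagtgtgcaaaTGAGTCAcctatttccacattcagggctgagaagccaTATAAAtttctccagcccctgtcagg
The AP-1 spelling began 35 bases before the start in Mmp13, 46 in Mmp3, and 63 in both Mmp10 and Mmp7. A match of letters is a description and not a shown binding site.

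The stromelysins and the collagenase of chromosome 9 varied most among the colon libraries. Mmp3, which cuts many matrix proteins and activates other MMPs, had 4778, 125 and 108 normalized counts in mice 1, 2 and 4 (labelled UC) and 2879, 49.2 and 33234 in mice 7, 8 and 9 (labelled control). Mice 9, 1 and 7 were high and the other 3 low, so both labelled groups held high and low libraries and overlapped. Mmp10, of the same subfamily, had 2411, 46.2 and 31.3 under the UC label and 759, 42.9 and 20513 under the control label. The order at the top was again 9, 1, 7, with overlapping groups. Mmp13, which cleaves fibrillar collagen, had 3449.6, 159 and 148 under the UC label and 1376, 149 and 27653 under the control label, and the libraries of mice 2, 4 and 8 lay within a narrow range. Mmp7, an epithelial enzyme that in the small intestine activates defensins, had 154, 0 and 0 under the UC label and 24.0, 3.78 and 107 under the control label. It was thus near the limit of detection in mice 2, 4 and 8, where a count of 0 allows up to 2.61 normalized counts in mouse 2 and 2.47 in mouse 4 (3 counts, counting error only). Mmp7 shares 123 exon bases with AV064505 on the opposite strand, and the counting was not stated to use strand, so its reads cannot be told apart from those of that gene there.

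Mmp3 and Mmp10 are close relatives, and 202 of the 31-base words of their transcripts were identical (of 1771 in Mmp3 and 1692 in Mmp10), so some reads may have been split between them. Their ratio was not fixed. Mmp3 was 1.98, 2.70 and 3.45 times Mmp10 in normalized counts in mice 1, 2 and 4, and 3.80, 1.15 and 1.62 times in mice 7, 8 and 9. No 31-base word was shared by Mmp3 and Mmp13.

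**Figure D1:**
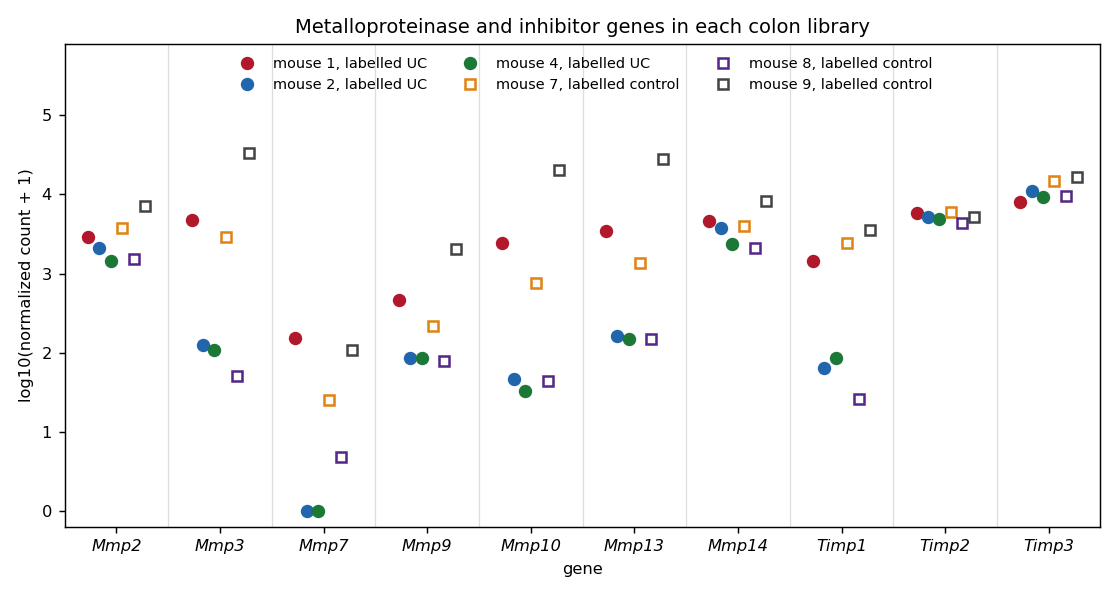
Each point is 1 colon library, with the gene on the x axis and log10(normalized count + 1) on the y axis; filled circles are mice labelled UC and open squares mice labelled control. For Mmp3, Mmp10, Mmp13 and Timp1 the points of mice 1, 7 and 9 lie above those of mice 2, 4 and 8, whereas all 6 points of Timp2 lie close together.

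The gelatinases, which cut denatured collagen and the type IV collagen of basement membranes, differed from each other in colon. Mmp9, a product of neutrophils and macrophages among other cells, had 461, 85.3 and 84.1 normalized counts under the UC label and 218, 76.9 and 2013 under the control label. The libraries of mice 9, 1 and 7 were the 3 highest, and those of mice 2, 4 and 8 agreed closely. Mmp2, made mostly by fibroblasts, had 2898, 2078 and 1426 under the UC label and 3806, 1537 and 7028 under the control label. Mouse 9 stood highest, and the remaining 5 libraries formed a graded series. Mmp14, a membrane-bound enzyme that activates the Mmp2 precursor, had 4649.65, 3773 and 2346 under the UC label and 3951, 2099.9 and 8178 under the control label. Its highest library was also that of mouse 9, and mice 7 and 2, next to each other in the order, differed by a factor of only 1.05.

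Among the inhibitors, Timp1 alone varied on the scale of the stromelysins. Timp1, which binds most secreted MMPs and is induced by cytokines, had 1437, 62.7 and 85.0 normalized counts under the UC label and 2425, 25.2 and 3498 under the control label. Mice 9, 7 and 1 were high and the other 3 low. Timp2, which also takes part in the activation of Mmp2 by Mmp14, had 5764, 5205 and 4881 under the UC label and 5912, 4349.9 and 5199 under the control label. All 6 libraries lay within 1.36-fold. Timp3, which is held in the matrix and also inhibits ADAM proteases, had 8058.5, 10926 and 9239.95 under the UC label and 14794, 9573 and 16383 under the control label, and its lowest library was that of mouse 1. Timp3 shares 1733 exon bases with Syn3 on the opposite strand, so part of its count cannot be assigned with certainty. Timp1 lies within Syn1 on the opposite strand without a shared exon base.

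The ratio of the highest to the lowest colon library was 676 for Mmp3, 654 for Mmp10, 186 for Mmp13, 139 for Timp1 and 26.2 for Mmp9. It was 4.93 for Mmp2, 3.89 for Mmp14, 2.03 for Timp3 and 1.36 for Timp2. Of the 17534 genes with a mean of at least 50 normalized counts and no library at 0, the median ratio was 1.94, and 94 genes (0.536%) reached 100. The 3 highest libraries were those of mice 1, 7 and 9 for 8 of the 10 members, against 18.3% of the 22123 genes with a mean of at least 10. Timp2 and Timp3 were the exceptions. These counts describe the libraries and are no test of the members.

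**Figure D2:**
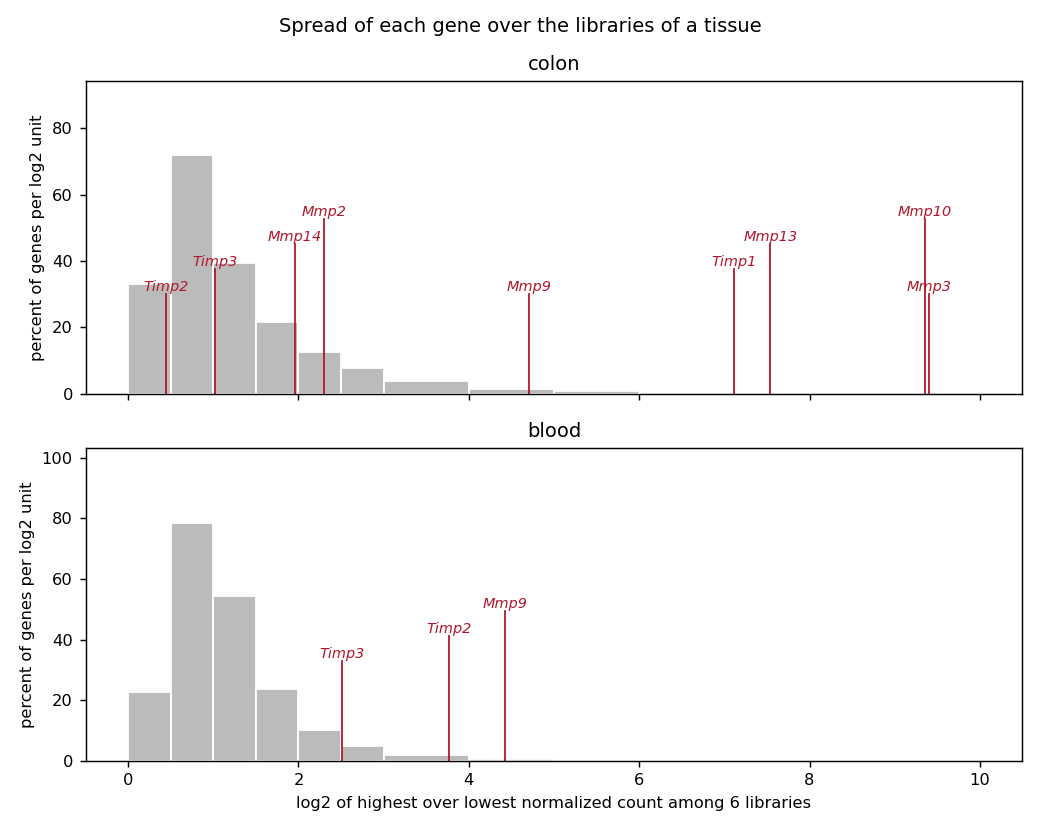
Grey bars show the percent of genes per log2 unit against log2 of the highest over the lowest normalized count among the 6 libraries of a tissue (genes with a mean of at least 50 and no library at 0), and red lines mark the members. In colon Timp2 and Timp3 lie among the bulk of genes, while Mmp3 and Mmp10, at 676 and 654, lie far in the tail.

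Expression differed along the stretch of chromosome 9. Of the 10 MMP genes in the stretch, 6 had a mean of at least 10 normalized counts in colon. In all 6 the libraries of mice 1, 7 and 9 were the 3 highest, beside 18.3% of all genes at that mean. These 6 include the 4 members already counted above. Besides the 4 members, these were Mmp12 (macrophage elastase), with 56.6 to 657 normalized counts, and Mmp8 (neutrophil collagenase), with 0 to 1964. The remaining MMP genes of the stretch, Mmp1a, Mmp1b, Mmp20 and Mmp27, had means of 0.900, 0.632, 1.74 and 4.57 and lay between the expressed ones. Of the 13 annotated genes of the stretch, only the 10 MMP genes were read.

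The study's first comparison asked which genes differ between the colon of mice labelled UC and of mice labelled control. None of the 10 members was significantly differentially expressed (SDE, adjusted p of at most 0.05 and absolute log2FC over 1 by edgeR's quasi-likelihood test). Mmp13 was 1252 ± 1903 normalized counts under the UC label and 9726 ± 15538 under the control label (SD, n = 3), Mmp3 was 1670.0 ± 2691 and 12054 ± 18396, and Timp3 was 9408 ± 1441 and 13584 ± 3563. The log2FC (UC minus control) ranged from -3.09 for Mmp10 to 0.18 for Mmp7, and 8 of 10 values were negative under the deposited labels, with a median of -1.41 beside -0.01 over all genes tested. For Mmp3 it was -2.84 (SE 2.22), for Mmp13 -2.95 (SE 2.02), for Timp1 -1.91 (SE 1.71) and for Mmp9 -1.87 (SE 1.29). The adjusted p was 0.9999 for every member (edgeR), and none had an unadjusted p under 0.05, the lowest being 0.0628 for Timp3 (log2FC -0.54, SE 0.24). Limma-voom also called 0 members, as did DESeq2, which gave no adjusted p for Mmp10. Over all 22238 genes tested, 0.0045% were SDE, and 5.67% had labelled groups that did not overlap, which none of the members had. The library of mouse 9 set the sign of 5 values. Without it, the log2FC was 0.15 for Mmp3, 1.01 for Mmp10, 0.68 for Mmp13, 0.48 for Mmp9 and 0.22 for Mmp14. Without the library of mouse 1, it was -6.68 for Mmp3, -7.50 for Mmp10 and -5.97 for Mmp13, and still no member was SDE. Mmp7 turned negative without mouse 1, 7 or 8 (-8.51, -0.11 and -0.36), and Timp2 without mouse 1 or 8 (-0.04 and -0.07). Timp1 was -4.75 without mouse 1 and -1.25 without mouse 9, and Mmp2, at -0.95 (SE 0.54), was -0.35 without mouse 9.

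The summed enzyme and inhibitor transcripts also differed between libraries. As CPM per kilobase of exon (counts scaled to library size with TMM factors, then divided by length), the 7 MMP genes summed to 40.2, 7.79 and 5.31 in the colon of mice 1, 2 and 4 and to 25.3, 5.27 and 249 in mice 7, 8 and 9. The 3 TIMP genes summed to 22.7, 14.99 and 13.5 and to 34.6, 12.99 and 40.4. The MMP sum therefore exceeded the TIMP sum in mice 9 and 1, by 6.15 and 1.78 times. The ratio was 0.730 in mouse 7 and 0.392 to 0.520 in mice 2, 4 and 8. Both sums hold the members only, without genes such as Mmp15 and Timp4, so they give no balance of all enzymes and inhibitors. Mmp15, at 92.8 ± 20.4 CPM in colon (SD, n = 6), had a higher mean CPM there than any of the 7 MMP members. Mmp3, Mmp10 and Mmp13 together made up 90.8% of the MMP sum in mouse 9, 73.6% in mouse 1 and 57.7% in mouse 7, against 10.9% to 13.7% in the other 3 libraries. In those 3 libraries the share of Mmp14 was 37.4% to 44.3%, against 3.06% in mouse 9. On the inhibitor side, Timp1 took 54.1%, 45.0% and 39.6% of the TIMP sum in mice 9, 7 and 1, but 1.223% to 3.85% in mice 8, 2 and 4. Timp3 took 45.7% to 50.7% in those latter libraries. These are ratios within a library and do not depend on the scaling between libraries.

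**Figure D3:**
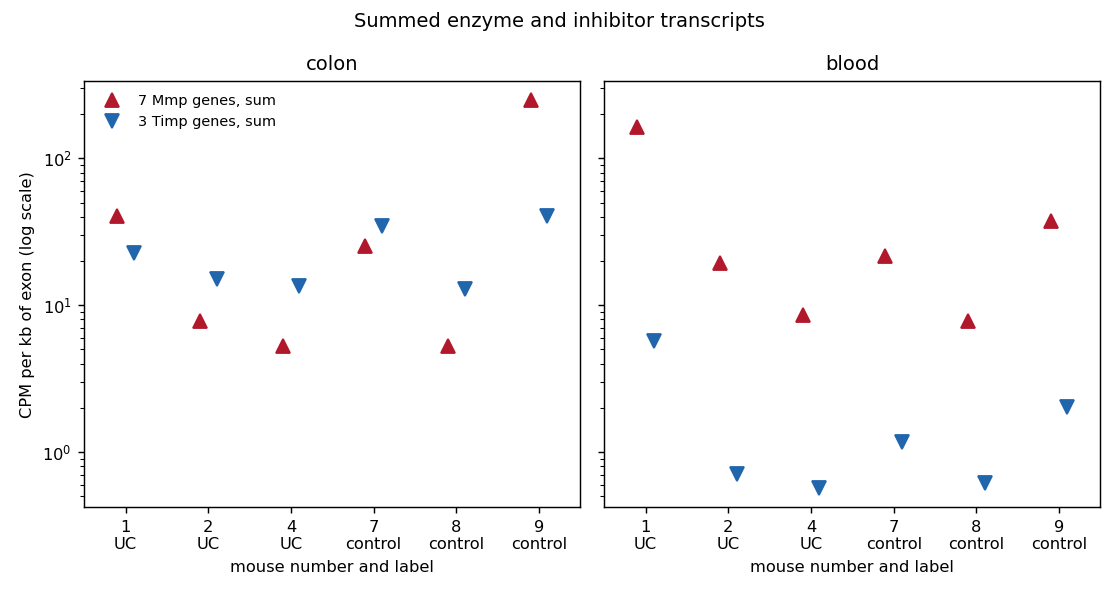
For each mouse (x axis, with its label) upward triangles give the sum of the 7 Mmp genes and downward triangles that of the 3 Timp genes, in CPM per kb of exon on a log scale, in colon and blood. In colon the sum of these Mmp members lies above that of the Timp members in mice 1 and 9 only, and in blood in all 6 libraries.

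Markers of neutrophils and macrophages were high in the same colon libraries as most members. Of the neutrophil markers with a mean of at least 10 normalized counts, 9 of 10 had their 3 highest libraries in mice 1, 7 and 9. All 11 monocyte and macrophage markers did, beside 18.3% of all genes at that mean. For endothelium and for epithelium it was 1 of 8 markers each, and for smooth muscle 0 of 8. The neutrophil sum (12 genes, none at 0 in every library) was 7478 to 37737 normalized counts under the UC label and 17778 to 69786 under the control label, in the order 9, 1, 7, 8, 4, 2, and Ly6g alone made up 61.0% of it over the 6 colon libraries. Ly6g was higher in colon than in blood (log2FC 2.90, SE 0.92, adjusted p = 0.0153, edgeR), whereas 10 of the 12 markers were higher in blood. Without Ly6g, a change made after seeing the data, the sum was 16243, 128 and 261 in mice 1, 2 and 4 and 8267, 323 and 44307 in mice 7, 8 and 9. The macrophage sum (11 genes) was 19760.4 to 45841 and 17947 to 73267. The fibroblast sum (12 genes) was 64532 to 86225 and 55344 to 129409, with 4 of 12 genes highest in mice 1, 7 and 9, and the smooth muscle sum (8 genes) was 237415 to 549720.0 and 133409 to 373279, lowest in mouse 9. Markers of Paneth cells and of squamous epithelium were low, at 548 to 1031 and 157 to 360.4 summed counts, and Defa21, Defa23 and Sprr3 were at 0 in every colon library. The part of these cells in the values of the members was not tested, and in bulk tissue more cells of a type cannot be told apart from more RNA per cell.

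In blood a single member dominated. Mmp9 had 31750.2, 3785 and 1649.5 normalized counts in mice 1, 2 and 4 (labelled UC) and 4071, 1478 and 7228 in mice 7, 8 and 9 (labelled control). Mouse 1 was far above the rest, followed by mouse 9, and the groups overlapped. Per kilobase, Mmp9 was 42.9 ± 60.3 CPM per kb (SD, n = 6), with a median of 20.2. It made up 95.9% to 99.9% of the sum of the 7 MMP members in every blood library. That sum leaves out Mmp8 and Mmp19, at 119 ± 171 and 98.1 ± 15.9 CPM in blood, beside 152 ± 214 CPM for Mmp9. Mmp9 was the only member whose lowest library lay above the highest library of the next, Timp2.

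The other members were low or at 0 in blood. Timp2 had 1092.0, 132 and 80.2 normalized counts under the UC label and 185, 97.7 and 379 under the control label, so mice 1 and 9 again stood highest. Timp3 had 274, 48.2 and 87.5 under the UC label and 125, 77.0 and 116 under the control label. Mouse 1 was highest and mouse 2, with the same label, lowest. Mmp13 ranged from 4.59 to 33.1 normalized counts over the 6 libraries with a median of 23.2, and Mmp14 from 6.89 to 37.9 with a median of 16.2, close to the limit of counting. Mmp2 had 28 counts in 2 libraries and Mmp3 had 17 in 2, and the other 4 libraries were at 0. Mmp7, Mmp10 and Timp1 had 0 counts in all 6 blood libraries, which allows up to 2.30 to 4.52 normalized counts per library.

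**Figure D4:**
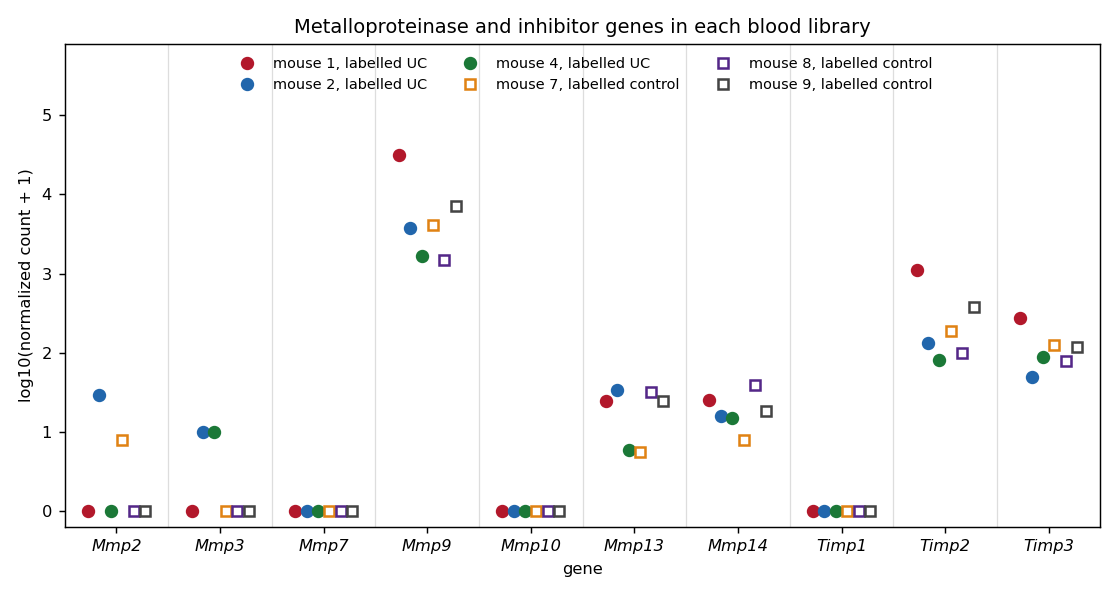
Each point is 1 blood library, with the gene on the x axis and log10(normalized count + 1) on the y axis; filled circles are mice labelled UC and open squares mice labelled control. Mmp9 lies above all other members in every library, between 1478 and 31750.2 normalized counts, and Mmp7, Mmp10 and Timp1 lie at 0.

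The comparison of blood between the labels could be fitted for 5 members, the others being under the filter on low counts. None of the 5 was SDE, against 0.0% of all 16759 genes tested, and 0 had an unadjusted p under 0.05 (edgeR, and 241 of all genes did). DESeq2 and limma-voom also called 0 of the 5. The log2FC (UC minus control) was 1.54 for Mmp9 (SE 1.03), 0.97 for Timp2 (SE 0.94), 0.36 for Timp3 (SE 0.59), 0.04 for Mmp13 (SE 0.91) and -0.22 for Mmp14 (SE 0.74), each with an adjusted p of 0.9998 (edgeR). The labelled groups overlapped for all 5, while they did not overlap for 6.5% of genes tested. Mouse 1 decided the sign for the first 3, which were -0.64, -1.05 and -0.62 without it. Mmp13 was also negative without mouse 1, 2 or 7 (-0.07, -0.49 and -0.43), Mmp14 was positive without mouse 8 (0.55), and the direction of Mmp13, Mmp14 and Timp3 turned with the scaling or the test.

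Mmp9 in blood was also compared with the neutrophil markers. Their sum was 442479, 51622 and 47084 normalized counts in mice 1, 2 and 4 and 151479, 39464 and 348270.0 in mice 7, 8 and 9. Mmp9, which is not in that list, came to 7.18%, 7.33% and 3.50% of this sum in mice 1, 2 and 4 and to 2.69%, 3.74% and 2.08% in mice 7, 8 and 9. The highest of these shares was 3.53 times the lowest, while Mmp9 itself spanned 21.5-fold. Ly6g made up 0.417% of the sum in blood, whose mean was 180066, with S100a9 at 103992 and S100a8 at 43679. For Timp2 the shares spanned 2.36-fold and the level 13.6-fold. Mmp8, whose protein is stored in neutrophil granules, spanned 2.85-fold as a share and 30.1-fold as a level. In colon the share of Mmp9 spanned 6.67-fold (25.3-fold without Ly6g) and its level 26.2-fold. For Timp2 in colon the share spanned 9.34-fold (347-fold without Ly6g) and the level 1.36-fold. The part of neutrophil number in these values was not tested. Over the members with a mean of at least 10 in blood, 3 of 5 had mice 1, 7 and 9 as their highest libraries (Mmp9, Timp2 and Timp3), against 11.8% of 16370 genes, and for Mmp9 mouse 7 was only 1.08 times mouse 2.

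Whether the effect of the label differed between colon and blood was tested with an interaction term fitted to the 12 libraries. No member passed (adjusted p of 1.0 for each, edgeR; 0.0043% of 23258 genes did), nor did any by DESeq2 or limma-voom, and none had an unadjusted p under 0.05. The lowest was that of Mmp9, with a difference of -3.42 (SE 1.87, unadjusted p = 0.0941, adjusted p = 1.0 by edgeR), since its log2FC was -1.87 in colon and 1.54 in blood. It was -1.67 without mouse 9, and -1.87 with the mouse as a block. For Mmp7, Mmp10 and Timp1 it could not be estimated, because all blood libraries were at 0.

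The contrast of colon with blood showed where the members were expressed. Mmp9 was higher in blood and the other 9 in colon, and 5 of those 9 reached the test through colon alone. Mmp9 was 2.72 ± 4.21 CPM in colon and 152 ± 214 in blood (SD, n = 6), and every blood library lay above every colon library. Its log2FC (colon minus blood) was -5.89 (SE 1.12, adjusted p = 6.76e-04 by edgeR). The inhibitors shared by both tissues were Timp2, with 29.0 ± 3.42 CPM in colon and 5.97 ± 7.14 in blood (log2FC 2.36, SE 0.59, adjusted p = 0.00412, edgeR), and Timp3, with 63.9 ± 19.1 and 2.21 ± 1.47 (log2FC 4.83, SE 0.42, adjusted p = 2.03e-06, edgeR). For both, every colon library lay above every blood library. Timp2 thus showed the smallest fitted log2FC of the 10. Mmp7, at 0 in blood, has only a lower bound of its fold and cannot be ranked against Timp2 by it.

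The remaining enzymes were at most traces in blood. Mmp14 was 23.1 ± 12.2 CPM in colon and 0.347 ± 0.191 in blood (log2FC 6.06, SE 0.50, adjusted p = 1.36e-06, edgeR). Mmp13 was 30.5 ± 60.6 and 0.359 ± 0.221 (log2FC 5.78, SE 1.38, adjusted p = 0.00298, edgeR). Both were counted in all 6 blood libraries, and their colon libraries all lay above them. Mmp2 was 17.4 ± 11.8 CPM and 0.106 ± 0.202 (log2FC 7.62, SE 1.03, adjusted p = 5.81e-05, edgeR), and Mmp3 was 38.1 ± 72.4 and 0.0538 ± 0.0834 (log2FC 11.20, SE 2.42, adjusted p = 0.00252, edgeR). Mmp2 and Mmp3 were under the filter on low counts in blood and reached the test through colon alone. Their values are therefore descriptions. For the 3 members at 0 in blood a lower bound was taken against a floor of 3 counts per library, on average 0.0553 CPM. Mmp10, at 22.0 ± 45.2 CPM in colon, was at least 398-fold higher there, Timp1, at 7.02 ± 8.19, at least 127-fold higher, and Mmp7, at 0.268 ± 0.367, at least 4.85-fold higher. Without mouse 9 the bounds were 64.1-fold for Mmp10 and 79.4-fold for Timp1, and without mouse 1 that of Mmp7 was 2.75-fold. The lowest colon library was 3.09 times the floor for Mmp10 and 2.55 times for Timp1, and for Mmp7 it was at 0.

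All 10 members were SDE between the tissues, 9 higher in colon and 1 higher in blood, where 37.7% of all genes tested were higher in colon and 20.8% higher in blood. Of the 9, Mmp2, Mmp3, Mmp7, Mmp10 and Timp1 passed the filter on low counts through their colon libraries alone, so their calls are descriptions. The median log2FC over all genes was 0.46, 0.52 with DESeq2's size factors and 2.57 with library size only, and all 10 directions held under the 3 scalings. The calls of Mmp3, Mmp13 and Mmp7 were lost with limma-voom (adjusted p = 0.0729, 0.125 and 0.175), and that of Mmp7 also without mouse 1, 7, 8 or 9 (adjusted p = 1.0, 0.0844, 0.0573 and 0.108, edgeR). Ribosomal RNA was removed with a kit for blood that also removes globin RNA, so kit and tissue cannot be told apart.

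**Figure D5:**
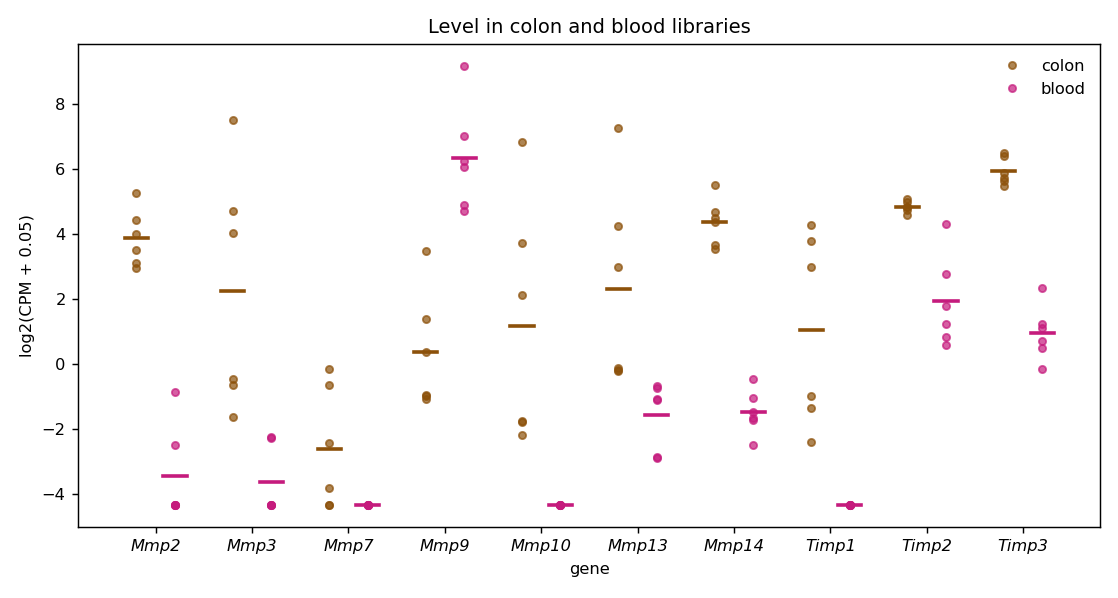
Each point is 1 library, with the gene on the x axis and log2(CPM + 0.05) on the y axis; brown points are colon and pink points blood (6 libraries each), and bars mark the mean of the log2 values. Mmp9 is the only member with all blood points above all colon points, and libraries at a count of 0 lie at the bottom of the axis.

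Compared per length, the order of mean levels in colon was Mmp3 (21.2 ± 40.2 CPM per kb, SD, n = 6), Mmp10 (12.8 ± 26.3), Mmp13 (11.4 ± 22.7), Timp1 (7.91 ± 9.22), Timp3 (7.85 ± 2.34), Timp2 (7.44 ± 0.879), Mmp2 (5.16 ± 3.49), Mmp14 (3.88 ± 2.05), Mmp9 (0.768 ± 1.19) and Mmp7 (0.251 ± 0.344). By the median Timp2 came first at 7.34 CPM per kb, then Timp3 at 6.95, Mmp3 and Timp1 both at 4.75, Mmp2 at 4.06, Mmp14 at 3.62, Mmp13 at 1.63, Mmp10 at 1.33, Mmp9 at 0.241 and Mmp7 at 0.0741. The ranges of all neighbours in this order overlapped. In blood the order was Mmp9, Timp2 (1.53 ± 1.83), Timp3 (0.271 ± 0.180), Mmp13 (0.134 ± 0.0826) and Mmp14 (0.0582 ± 0.0320), where again neighbours after Mmp9 overlapped.

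Other genes of the system were read from lists by role (other MMPs, other inhibitors, ADAM proteases, partners, matrix proteins and regulators). The inhibitor list is broad and also holds Pcolce and Pcolce2, whose products enhance a procollagen protease. Between the labels no gene of these lists was SDE in colon or blood (edgeR, DESeq2 or limma-voom). At an unadjusted p under 0.05 stood Adamts9 (log2FC -0.90, SE 0.22) and Cldn1 (-1.36, SE 0.40) in colon and Dcn (4.40, SE 1.14; 7.33 without mouse 7) in blood, where 1.41% of all genes tested in colon and 1.44% in blood did. Of the cell type markers, Cdh5 did so in colon and Mrc1 and Thy1 in blood. Of the 16 other MMPs, 11 could be tested between the tissues, and 8 were higher in colon and 3 in blood, beside 37.7% and 20.8% of all genes tested. Of these 8, 6 were under the filter on low counts in blood and so reached the test through colon alone, as did 7 of 9 among the other inhibitors, 9 of 11 among the ADAM proteases, 2 of 3 among the partners, 7 of 20 among the matrix proteins and 6 of 10 among the regulators described next. These counts are therefore descriptions. The 3 higher in blood were Mmp8 (log2FC -6.36, SE 1.73, adjusted p = 0.00661, edgeR), Mmp19 (-4.14, SE 0.51, adjusted p = 2.74e-05) and Mmp25 (-3.64, SE 1.37, adjusted p = 0.0326). Mmp25, a membrane-anchored enzyme of leukocytes, lost its call with library size only and without mouse 1, 4, 7 or 9 (adjusted p 0.0577 to 0.265). Mmp15, a membrane-type MMP, stood out on the other side with 92.8 ± 20.4 CPM in colon and 3 counts in all blood libraries together, and Mmp16 and Mmp24 were at 0 in blood. With Mmp9, 4 MMP genes tested were thus higher in blood.

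In the inhibitor list, 9 of 10 genes tested were higher in colon and 0 in blood. The 9 included Pcolce, which is not an inhibitor (5.82 ± 2.15 CPM in colon, 6 counts in all blood libraries together). Spock3 and Spock1 were at 0 in blood and at least 20.1-fold and 12.8-fold higher in colon. Slpi, an antiprotease of secretions and leukocytes, was not SDE (22.3 ± 24.2 CPM in colon and 46.3 ± 29.6 in blood, log2FC -1.06, adjusted p = 0.36, edgeR), and its direction turned with library size only (1.05). With the mouse as a block (-2.49, adjusted p = 0.0203) or without mouse 1 (-2.64, adjusted p = 0.0103, edgeR) it was SDE and higher in blood. Of 23 matrix proteins, 20 were higher in colon and 0 in blood, among them Lamb1, Lama1, Eln and Col3a1, the last at 396 ± 196 and 2.43 ± 1.69 CPM. Of 18 ADAM proteases, 11 were higher in colon (among them Adamts15, Adamts1 and Adamts12) and 4 in blood (among them Adam8, Adam19 and Adam10). Adam10, the main sheddase of many receptors, was 52.2 ± 11.9 CPM in colon and 363 ± 81.0 in blood. Of 10 activation and docking partners tested, 3 were higher in colon (Mcpt4, Hpn and Cldn1) and 2 in blood, Cd44, a hyaluronan receptor that can hold Mmp9 at the cell surface, and Itgb3, an integrin chain of platelets. Of 21 regulators, 10 were higher in colon (among them Elf3, and Il11 and Fosl1, at 0 in blood and at least 51.2-fold and 12.1-fold higher) and 6 in blood (among them Ets1, Il1b and Osm). The calls of Adam8, Adam10, Adam19, Cd44, Il1b and Osm were lost with library size only, that of Osm also without mouse 7, that of Il1b without mouse 2, 4 or 7, that of Cldn1 without mouse 4 or 7, that of Hpn without mouse 4 or 8, and that of Mcpt4 without mouse 4.

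For the member with the largest spread in each tissue, the genes with the most alike pattern were found from the mean absolute difference of centred log2(normalized count + 1) over the 6 libraries. In colon these were, for Mmp3, A2m (0.50), Gm5483 (0.51), Csf3 (0.52), Tarm1 (0.53) and Dio2 (0.53), where Mmp10 ranked 6, Mmp13 ranked 16 and Timp1 ranked 24 among 17726 genes. A2m, Gm5483, Csf3 and Tarm1 had at most 5.23 normalized counts in mice 2, 4 and 8. Their ranks therefore depend on the added 1. In A2m, a broad protease inhibitor of plasma, the colon libraries held 64.4, 2.61 and 2.47 normalized counts in mice 1, 2 and 4 and 93.6, 0 and 452 in mice 7, 8 and 9. Csf3, the neutrophil growth factor G-CSF, had 126, 2.61 and 0 and 86.0, 0 and 1201. Both were thus high in the libraries where Mmp3 was high. In blood the genes most like Mmp9 were Ggt1 (0.21), Gm36723 (0.25), Dab2ip (0.26), Timp2 (0.27) and Gm2260 (0.30), with Timp2 ranking 4 among 12691 genes and Timp3 ranking 1577. These likenesses over 6 libraries are descriptions and carry no test.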

How the data were processed

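Total RNA was sequenced from colon and whole blood of 6 mice (12 libraries). The authors trimmed reads, removed ribosomal reads, mapped to GRCm38 with STAR and quantified with StringTie 1.3.4c on an Ensembl annotation. The deposited counts come from transcript coverage and are not a tally of reads. The deposited normalized values, a signal per gene in 1 table per tissue, equalled the count over 1 factor per library, and members missing from a table were scaled by the same factor. Counts outside these tables made up 8.63% to 18.7% of a colon library and 39.1% to 67.9% of a blood library.

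Groups followed the labels, and replicates are separate mice. The source names contradicted the tissue characteristic, which was used. Each tissue was fitted alone, and the tissue contrast and the interaction over all 12 libraries, on all genes with edgeR 4.0.16 (R 4.3.3; TMM, filterByExpr, quasi-likelihood, Benjamini-Hochberg over all genes tested). The fits were also run on simulated counts. Their spread was set smaller than that of Mmp3 or Mmp13 here, so that run does not show the power in these data. TMM factors ran from 0.347 in blood to 2.32 in colon. Alternatives were DESeq2 1.42.0, limma-voom (limma 3.58.1), 2 other scalings, other filters, a stricter adjusted p of 0.01, each mouse left out, and the mouse as a block, since colon and blood come from the same mice (correlation of deviations 0.00682 to 0.221, over 0.1 in 3 of 6 mice). Exon lengths and positions were taken from a GENCODE annotation of GRCm38. Members, gene lists and tests were chosen with earlier results of these data known. Named beyond the members were, per list, up to 3 SDE genes in each direction with the largest fitted log2FC (which for genes at 0 in blood depends on the prior count), genes with the highest means, unadjusted hits, and the 5 genes nearest in pattern. Those at an unadjusted p under 0.05, Mmp12 and other neighbours on chromosome 9 were chosen after their values were seen. Intervals and floors cover counting error only.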

Additional observations from a re-analysis of the deposited data

How the results depend on the processing

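The count of SDE members was 0 between the labels in colon, in blood and for their difference under every alternative run. Between the tissues it was 10, 9 at an adjusted p of 0.01, and 9 to 10 when 1 mouse was left out. With limma-voom it was 7, as the calls of Mmp3, Mmp13 and Mmp7 were lost. With only the genes of both normalized tables it was also 7, because Mmp7, Mmp10 and Timp1 were then not tested. With the mouse as a replicate block it stayed 10, the interaction stayed at 0, and the block changed no call of a member.

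Signs of the log2FC between the labels turned in some settings, the cause of which was not tested beyond the library left out. When 1 mouse was left out, the range in colon was -6.68 to 0.15 for Mmp3, -8.51 to 1.84 for Mmp7, -3.17 to 0.48 for Mmp9, -7.50 to 1.01 for Mmp10, -5.97 to 0.68 for Mmp13, -0.75 to 0.22 for Mmp14, -4.75 to -1.25 for Timp1 and -0.07 to 0.14 for Timp2. In blood it was -0.64 to 2.16 for Mmp9, -0.49 to 0.55 for Mmp13, -0.64 to 0.55 for Mmp14, -1.05 to 1.61 for Timp2 and -0.62 to 0.76 for Timp3. Mmp7 in colon was -3.26 with limma-voom. In blood Mmp13 was -0.22 with library size only and -0.04 with limma-voom, Mmp14 was 0.20 with limma-voom, and Timp3 was -0.12 with library size only. Slpi between the tissues was 1.05 with library size only. Of the members' log2FC between the tissues, 0 reversed. The lower bound of the fold between the tissues ran from 64.1 to 523 for Mmp10, 79.4 to 166 for Timp1 and 2.75 to 6.38 for Mmp7. The Mmp9 interaction ran from -3.85 to -1.67. With 3 mice per group as labelled and highly unequal libraries, changes of the size seen for Mmp3 could not be told from the spread.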
